A study of Mus musculus with 6 samples.

Results

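The genes described here are 10 of the protein-coding genes of mouse mitochondrial DNA, mt-Nd1, mt-Nd2, mt-Nd4, mt-Nd5, mt-Nd6, mt-Cytb, mt-Co1, mt-Co2, mt-Co3 and mt-Atp6, taken by symbol from 52636 gene rows of a table of RNA levels in bone marrow neutrophils. They were taken by name, and no threshold on a value entered the rule. Neutrophils came from the marrow of C57BL/6N mice aged 10 weeks, with 3 WT libraries and 3 labelled LRP5-null, the latter from mice with loxP-flanked Lrp5 alleles (LRP5f/f) and a Cre recombinase placed in Lyz2 (Lyz2Cre+), a gene active across myeloid cells and so not in neutrophils alone. No treatment is named in the labels, and nothing in them says that the 3 libraries of a label came from separate animals, so p-values measure the spread between these libraries, which may be technical. For the WT mice the labels name no floxed allele and no Cre. Lrp5 itself was at 1.12, 1.31 and 1.42 TPM (transcript abundance scaled by transcript length and to the same total in every library) in WT replicates 1, 2 and 3 and at 1.68, 1.77 and 2.07 TPM in replicates 1, 2 and 3 labelled LRP5-null (limma adjusted p = 0.136), and so was not lower in the latter. Lyz2, which carries the Cre, was lower there (limma adjusted p = 0.00351, log2 fold change −0.91). Which exons the floxed alleles lose is not given in the sources used here, so directions rest on the labels, and "LRP5-null libraries" stands for the libraries so labelled. Libraries held 249841492 to 340580330 reads, and WT replicates 1 and 2 stood apart from the other 4 in their share of ribosomal reads and in a trend with GC content.

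Mitochondrial DNA is a small circle that is copied into long RNAs from both strands, which are then cut into ribosomal RNAs, tRNAs and mRNAs. Its mRNAs encode core subunits of complexes I, III and IV of the respiratory chain and of ATP synthase, while complex II and most other subunits are encoded in the nucleus. Mature neutrophils are known for few mitochondria and for a heavy use of glycolysis.

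The 10 mRNAs together made up 0.225%, 0.145% and 0.110% of all TPM in WT replicates 1, 2 and 3, and 0.108%, 0.110% and 0.112% in replicates 1, 2 and 3 labelled LRP5-null. All 37 genes of mitochondrial DNA together made up between 0.277% and 0.524%. WT replicates 1 and 2 held more of this RNA than any other library. WT replicate 3 lay within the range of the LRP5-null libraries for the 10 mRNAs and just below it for all 37 genes. By limma on log2(TPM + 1), over the 9775 genes that averaged 1 TPM or more, 0.532% were called at an adjusted p under 0.05, and 0 of the 7 members that passed this filter were called. The values of the 2 labels overlapped for all 10 members, against 29.7% of all tested genes whose values did not overlap. At an unadjusted p under 0.05 limma gave 1 of the 7, mt-Co1, against 2294 of all genes tested.

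Sequence that these genes share with nuclear DNA is given first, since it bears on which reads can be assigned to them. In NCBIM37 (the mm9 build), bases 6390 to 11042 of mitochondrial DNA, chrM:6390-11042, have a copy in nuclear DNA on the minus strand of chromosome 1, chr1:24618374-24623027, with 99.9% identity over 4654 aligned positions. The copy takes in the end of mt-Co1, all of mt-Co2, mt-Atp6 and mt-Co3, and the first part of mt-Nd4. The following lines give a stretch of 1 read length (94 bases) from the start of mt-Co2, with its start codon in capitals, and the same stretch of the nuclear copy, read on the strand that matches. No base differs.
mt-Co2, chrM:7013-7106, plus strand: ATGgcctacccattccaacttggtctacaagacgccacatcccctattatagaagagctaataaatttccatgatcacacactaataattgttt
Nuclear copy, chr1:24622311-24622404, minus strand: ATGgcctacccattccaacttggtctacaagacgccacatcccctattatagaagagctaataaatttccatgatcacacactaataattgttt

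Over the whole aligned stretch there were 2 substitutions and 1 additional base in the copy. Each is shown next because these are the only letters that differ between the 2 sequences in the genome build used. Whether the mitochondrial DNA of these mice carries the letters of that build was not tested. The letters therefore cannot be taken to tell the 2 origins of a read apart. Positions were counted from 1 at the first base of chrM, and the mitochondrial base is given first. The substitutions were A6393T in mt-Co1 and T9461C in mt-Nd3, a gene of complex I that is not among the 10. The additional A stood in mt-Tr, a tRNA gene, directly before position 9829, at the end of a run of A. Capitals mark the base that differs or is added.
Mitochondrial A6393T, chrM:6390-6423: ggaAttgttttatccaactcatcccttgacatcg
Nuclear A6393T, chr1:24622994-24623027: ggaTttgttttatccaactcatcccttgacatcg
Mitochondrial T9461C, chrM:9431-9491: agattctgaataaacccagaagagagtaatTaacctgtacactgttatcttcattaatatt
Nuclear T9461C, chr1:24619926-24619986: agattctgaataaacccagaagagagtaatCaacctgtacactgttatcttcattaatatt
Mitochondrial mt-Tr, chrM:9799-9859: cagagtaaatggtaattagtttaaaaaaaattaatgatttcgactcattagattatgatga
Nuclear mt-Tr, chr1:24619557-24619618: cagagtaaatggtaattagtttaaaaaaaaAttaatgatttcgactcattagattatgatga

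Of all stretches of 94 bases in each gene, the share also present without a mismatch in nuclear DNA was 100% for mt-Co2, mt-Atp6 and mt-Co3, 60.9% for mt-Nd4, 32.2% for mt-Co1, 3.81% for mt-Nd2 and 0.116% for mt-Nd5. The share was 0 for mt-Nd1, mt-Nd6 and mt-Cytb. The 3 members with every stretch shared were the 3 lowest of the 10, and each had a mean of under 1 TPM over the 6 libraries. The 3 other mRNA genes of mitochondrial DNA, mt-Nd3, mt-Nd4l and mt-Atp8, lie inside the same copy with 98.8%, 100% and 100% of stretches shared, and their highest values in any library were 0.115, 0.448 and 1.32 TPM. The low levels of these 6 genes therefore stand beside their shared sequence, and the part of read assignment in them was not tested. Between 3.18% and 3.43% of the reads of a library aligned to several places.

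**Figure D1:**
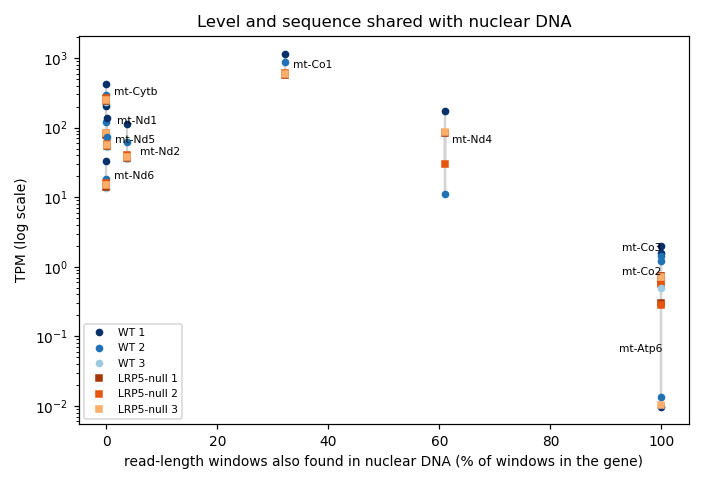
TPM in each library (log scale) against the share of read-length stretches of the gene that also occur in nuclear DNA, in percent, for the 10 mRNAs, with circles for WT and squares for LRP5-null libraries and a grey line joining the libraries of a gene. The 3 genes at 100% lie under 2 TPM in every library, while the genes at 0 to 32.2% lie above 13 TPM.

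Genes annotated inside the chromosome 1 copy were listed at low levels too. Gm10925, from 24620814 to 24621627, was listed at 1.48, 0.968 and 0.263 TPM in the WT replicates and at 0.575, 0.180 and 0.249 TPM in those labelled LRP5-null. Gm10222, from 24619243 to 24619539, lay between 0.0305 and 0.364 TPM. Both lay under 1.5 TPM in every library.

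Complex I takes electrons from NADH and passes them to ubiquinone, and 5 of the members encode its membrane subunits. mt-Nd1 (ENSMUSG00000064341.1, chrM:2751-3707, plus strand), whose product lies where ubiquinone binds, was measured at 203, 121 and 74.2 TPM in WT replicates 1, 2 and 3 and at 79.3, 82.4 and 84.1 TPM in replicates 1, 2 and 3 labelled LRP5-null. The log2 fold change, LRP5-null minus WT, was −0.57 (limma adjusted p = 0.303, standard error 0.31). The first 2 WT libraries lay above all LRP5-null libraries and the third lay below them, so the labels overlapped.

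mt-Nd2 (ENSMUSG00000064345.1, chrM:3914-4951, plus strand), for a subunit of the proton-pumping arm, was at 114, 62.6 and 35.9 TPM in WT and at 36.2, 40.01 and 38.3 TPM in LRP5-null libraries. Its log2 fold change was −0.72 (limma adjusted p = 0.258, standard error 0.35). WT replicate 3 was again the lowest library. mt-Nd5 (ENSMUSG00000064367.1, chrM:11742-13565, plus strand), for the subunit at the far end of that arm, was at 135, 74.1 and 52.7 TPM in WT and at 54.8, 57.3 and 56.3 TPM in LRP5-null libraries. The difference was −0.52 on the log2 scale (limma adjusted p = 0.320, standard error 0.29). The order of the libraries was that of mt-Nd1 and mt-Nd2 in its WT part.

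mt-Nd6 (ENSMUSG00000064368.1, chrM:13552-14070, minus strand) is the only one of the 13 protein-coding genes of mitochondrial DNA read from the other strand. It was at 32.8, 18.1 and 13.4 TPM in WT and at 14.1, 15.96 and 14.7 TPM in LRP5-null libraries. The log2 fold change was −0.40 (limma adjusted p = 0.401, standard error 0.28). Its WT libraries thus lay in the same order as those of mt-Nd1, mt-Nd2 and mt-Nd5, replicate 1 over replicate 2 over replicate 3. The ends of mt-Nd5 and mt-Nd6 overlap by 14 bases on opposite strands, given here on the plus strand with no letter set apart.
mt-Nd5 and mt-Nd6 overlap, chrM:13552-13565: ttaatctcgagtaa
Between 99.37% and 99.51% of the reads of a library were on the correct strand in the deposited read summary, so reads of this overlap were separable by strand.

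mt-Nd4 (ENSMUSG00000064363.1, chrM:10167-11544, plus strand) encodes another subunit of the proton-pumping arm and did not follow the other 4. It was at 176, 11.1 and 83.2 TPM in WT and at 83.0, 29.6 and 88.0 TPM in LRP5-null libraries. Replicate 2 of each label was the low one. As a share of the summed TPM of the 10 members, mt-Nd4 made up 7.82% and 7.59% in WT replicates 1 and 3 and 7.65% and 7.84% in LRP5-null replicates 1 and 3. It made up only 0.766% in WT replicate 2 and 2.68% in LRP5-null replicate 2. Those 4 libraries thus held nearly the same share and the other 2 stood apart within both labels. The log2 fold change of mt-Nd4 was 0.11 (limma adjusted p = 0.954, standard error 0.92), and it became −0.999 without WT replicate 2 and 0.93 without WT replicate 1. Of its stretches of read length 60.9% also occur in nuclear DNA, and whether this bears on the 2 low values was not tested.

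Complex III passes electrons from ubiquinol to cytochrome c, and mt-Cytb (ENSMUSG00000064370.1, chrM:14145-15288, plus strand), its cytochrome b, is its single subunit encoded in mitochondrial DNA. mt-Cytb was at 430, 298 and 232 TPM in WT and at 238, 263 and 252 TPM in LRP5-null libraries. The log2 fold change was −0.31 (limma adjusted p = 0.382, standard error 0.20). WT replicates 1 and 2 were above, and WT replicate 3 below, every LRP5-null library.

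Complex IV, cytochrome c oxidase, passes the electrons to oxygen, and its catalytic core comes from mt-Co1, mt-Co2 and mt-Co3. mt-Co1 (ENSMUSG00000064351.1, chrM:5328-6872, plus strand), for the subunit that reduces oxygen, was at 1157, 867 and 603 TPM in WT and at 578, 612 and 587 TPM in LRP5-null libraries. The log2 fold change was −0.51 (limma adjusted p = 0.194, unadjusted p = 0.0396, standard error 0.21). WT replicate 3 lay between LRP5-null replicates 2 and 3. mt-Co1 was the most abundant of the 10 in every library.

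mt-Co2 (ENSMUSG00000064354.1, chrM:7013-7696, plus strand), for the subunit that takes electrons from cytochrome c, was at 1.56, 1.22 and 0.687 TPM in WT and at 0.610, 0.669 and 0.728 TPM in LRP5-null libraries. mt-Co3 (ENSMUSG00000064358.1, chrM:8607-9390, plus strand), a structural subunit of that core, was at 1.96, 1.40 and 0.578 TPM in WT and at 0.743, 0.563 and 0.719 TPM in LRP5-null libraries. Both had a mean under the filter of 1 TPM and were not tested. Low as they were, both showed WT replicates 1 and 2 above the other 4 libraries.

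ATP synthase makes ATP from the proton gradient, and mt-Atp6 (ENSMUSG00000064357.1, chrM:7927-8607, plus strand) encodes subunit a of its proton channel. mt-Atp6 was at 0.00973, 0.0135 and 0.498 TPM in WT and at 0.301, 0.281 and 0.0104 TPM in LRP5-null libraries, with a mean of 0.186 TPM, and was not tested. It was the 1 member that was not highest in WT replicate 1. The gene before it, mt-Atp8, for another subunit of ATP synthase, was listed at 1.32, 0.751 and 0 TPM in WT and at 0, 0 and 0.355 TPM in LRP5-null libraries. The 3 libraries in which mt-Atp8 was above 0 were the 3 in which mt-Atp6 was lowest, and in the 3 with mt-Atp8 at 0 mt-Atp6 was between 0.281 and 0.498 TPM. Both genes lie in the nuclear copy, and they share 43 bases, shown here because a read of this stretch belongs to both genes, with no letter set apart. How reads of the shared stretch were divided between them was not tested.
mt-Atp8 and mt-Atp6 overlap, chrM:7927-7969, plus strand: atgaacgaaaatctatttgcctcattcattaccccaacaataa

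**Figure D2:**
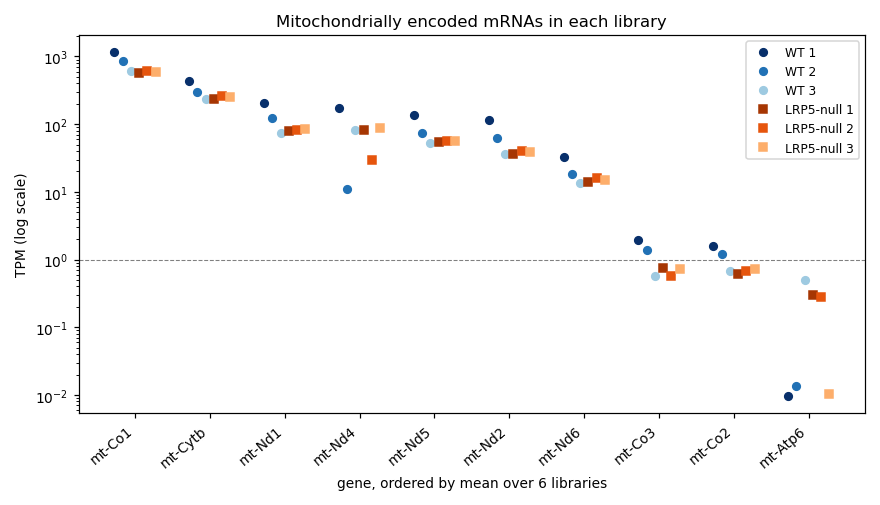
TPM (log scale) of the 10 mRNAs in each library, with genes ordered by their mean, circles for WT, squares for LRP5-null libraries and a dashed line at the filter of 1 TPM. The darkest circle, WT replicate 1, is the highest point in 9 of the 10 genes, and mt-Nd4 has its 2 low points in replicate 2 of each label.

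TPM is scaled per length, so listed levels can be set side by side between genes. That scaling does not account for reads that also match nuclear DNA. The places of mt-Co1, mt-Nd4, mt-Co2, mt-Co3 and mt-Atp6 may depend on how such reads were assigned, which was not tested. mt-Co1 lay above mt-Cytb and mt-Cytb above mt-Nd1 with no overlap of their libraries. mt-Nd1, mt-Nd4, mt-Nd5 and mt-Nd2 followed, with means over the 6 libraries of 107, 78.5, 71.8 and 54.5 TPM and overlapping ranges. Within each library mt-Nd1 was nevertheless above mt-Nd5, mt-Nd5 above mt-Nd2 and mt-Nd2 above mt-Nd6, at a mean of 18.2 TPM. Means of mt-Co3, mt-Co2 and mt-Atp6 came last at 0.994, 0.912 and 0.186 TPM, and the ranges of mt-Co3 and mt-Co2 overlapped.

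The summed TPM of the 10 members was 2253, 1455 and 1096 in WT and 1085, 1102 and 1122 in LRP5-null libraries. The mean was 1601 ± 592 (SD, n = 3) in WT and 1103 ± 18.9 (SD, n = 3) in LRP5-null libraries. Nearly all of the spread was thus within WT. Over the 5 members with under 5% of stretches in nuclear DNA (mt-Nd1, mt-Nd2, mt-Nd5, mt-Nd6 and mt-Cytb) the sum was 916, 574 and 408 TPM in WT and 422, 458 and 446 TPM in LRP5-null libraries, the same order within WT, with WT replicate 3 below every LRP5-null library. WT replicate 1 was 2.04 times, WT replicate 2 was 1.32 times and WT replicate 3 was 0.994 times the LRP5-null mean of the sum of 10.

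The excess in WT replicate 1 was not the same for all members. Against the LRP5-null mean it was 2.99 times for mt-Nd2, 2.64 times for mt-Nd4, 2.48 times for mt-Nd1, 2.41 times for mt-Nd5, 2.20 times for mt-Nd6, 1.95 times for mt-Co1 and 1.71 times for mt-Cytb. The 2 genes with the smallest excess, mt-Co1 and mt-Cytb, had the highest GC content of the 7, 39.9% and 39.1%, and the others lay between 34.1% and 37.6%. These are 7 genes of 1 library, and the part of base composition was not tested. WT replicate 3 was between 0.898 and 1.02 times the LRP5-null mean for the same genes other than mt-Nd4, for which it was 1.25 times.

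**Figure D3:**
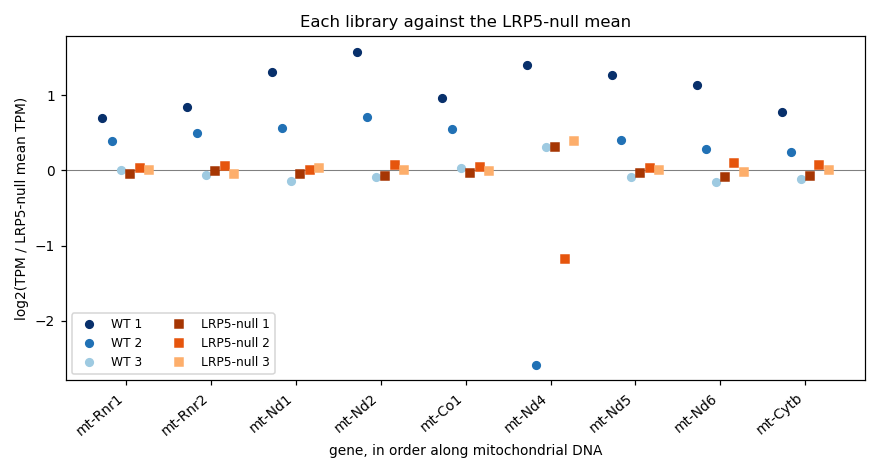
Log2 of the TPM of each library over the mean TPM of the 3 LRP5-null libraries, for the 2 ribosomal RNAs and the 7 mRNAs of mitochondrial DNA above the filter, in their order along it. WT replicates 1 and 2 lie above 0 for every gene except mt-Nd4, where WT replicate 2 is 0.167 times the LRP5-null mean, and WT replicate 3 lies close to the squares, below all 3 of them for mt-Rnr2, mt-Nd1, mt-Nd2, mt-Nd5, mt-Nd6 and mt-Cytb.

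Shares within the 10 members do not move with the scaling of a library. mt-Co1 took between 51.4% and 59.6% of their summed TPM. mt-Cytb took 19.1%, 20.5% and 21.2% in WT and 21.9%, 23.8% and 22.5% in LRP5-null libraries, the 1 member whose shares did not overlap between the labels (two-sided exact permutation test, p = 0.1, which is the smallest that 3 against 3 allows, adjusted p = 0.8 over the 10 members). Over the 5 members with few shared stretches, the share of mt-Cytb overlapped between labels, at 47.0%, 51.9% and 56.8% in WT and 56.3%, 57.3% and 56.6% in LRP5-null libraries. In that sum mt-Nd2 took 12.5%, 10.9% and 8.79% in WT and 8.58%, 8.73% and 8.59% in LRP5-null libraries (two-sided exact permutation test, p = 0.1, adjusted p = 0.375 over the 5). For mt-Nd2, WT replicate 3 lay within 0.1 percentage points of an LRP5-null library.

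The ribosomal RNAs of mitochondrial DNA had their WT libraries in the order of the summed mRNAs, replicate 1 highest and replicate 3 lowest. mt-Rnr1 was at 968, 780 and 601 TPM in WT and at 580, 612 and 600 TPM in LRP5-null libraries, a difference of −0.36 on the log2 scale (limma adjusted p = 0.212, standard error 0.16). mt-Rnr2 was at 1974, 1553 and 1054 TPM in WT and at 1092, 1142 and 1062 TPM in LRP5-null libraries, a difference of −0.43 on the log2 scale (limma adjusted p = 0.242, standard error 0.20). Of the 22 tRNA rows, 5 passed the filter, 0 were called and 4 were listed at 0 in every library.

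Several measures of the libraries moved with these levels. Ribosomal RNA took 1.20% and 1.30% of the reads in WT replicates 1 and 2 and between 2.69% and 3.30% in the other 4 libraries. The Spearman correlation of a gene's level in a library, relative to its mean, with its GC content was −0.61 and −0.43 in WT replicates 1 and 2 and between 0.33 and 0.44 in the other 4. The bias ratio for the 5′ end was 0.571 in WT replicate 1 and between 0.502 and 0.521 in the others. For the 3′ end it was 0.194 and 0.231 in WT replicates 1 and 2 and between 0.242 and 0.257 in the other 4. In the ribosomal share, the GC trend and the 3′ ratio, WT replicate 3 was on the side of the LRP5-null libraries. In the 5′ ratio only WT replicate 1 stood apart. The intronic share of reads instead separated the labels, at 8.60%, 7.78% and 9% in WT and at 10.95%, 11.23% and 10.62% in LRP5-null libraries. The part of these measures in the levels was not tested. The 2 libraries of low ribosomal share were both labelled WT, so no comparison of labels can be made within them. The remaining comparison, of WT replicate 3 with the 3 LRP5-null libraries, gave log2 fold changes of 0.14 for mt-Nd1, 0.09 for mt-Nd2, 0.09 for mt-Nd5, 0.14 for mt-Nd6, 0.11 for mt-Cytb, −0.03 for mt-Co1 and −0.46 for mt-Nd4 (limma adjusted p from 0.827 to 0.955). The lone WT library is there assumed to vary as the others do.

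**Figure D4:**
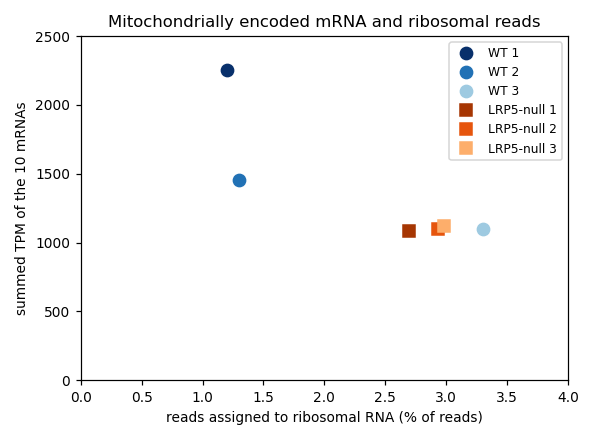
Summed TPM of the 10 mRNAs against the share of reads assigned to ribosomal RNA, in percent, with a point for each library. WT replicates 1 and 2, at 1.20% and 1.30%, lie at 2253 and 1455 TPM, and the other 4 libraries lie together between 1085 and 1122 TPM.

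Over the 7 tested members, 6 had a negative and 1 a positive log2 fold change, with a median of −0.51 beside 0.04 over all genes tested, of which 41.2% were lower. The positive one, mt-Nd4, had a lower mean TPM in LRP5-null libraries (66.8) than in WT (90.2), since the fold change averages logarithms. The median became 0.09 against WT replicate 3 alone, −0.15 without WT replicate 1, −0.10 with the share of ribosomal reads as a covariate and −0.28 with GC content and length trends removed. Without WT replicate 3, 4 of the 7 members were called lower in the libraries labelled LRP5-null, mt-Nd1 (−0.93, limma adjusted p = 0.0275), mt-Nd2 (−1.13, adjusted p = 0.0251), mt-Nd5 (−0.83, adjusted p = 0.0498) and mt-Co1 (−0.76, adjusted p = 0.0156), among 1920 genes called in all. The direction of the mitochondrially encoded mRNAs therefore depended on which WT libraries were compared. In bulk RNA, fewer cells of a type and less RNA per cell cannot be told apart.

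Nuclear genes for subunits of the same complexes had the opposite sign. Of 80 such genes in a list, 79 were tested, and 70 were higher and 9 lower in LRP5-null libraries. Over all genes tested 41.2% were lower. Of the 79, 0 were called and 33 had an unadjusted p under 0.05 in limma, against 2294 of all 9775 genes tested. Their median log2 fold change was 0.19, and 43 of the 79 lay higher in every LRP5-null library than in any WT library, against 17.4% of all genes tested. Against WT replicate 3 alone the median was 0.16, with 66 of 79 higher. The median of the nuclear genes thus kept its sign in the comparison in which 5 of the 7 mitochondrially encoded mRNAs changed theirs to higher.

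By complex, the nuclear median log2 fold change was 0.20 for complex I over 36 genes, 0.10 for complex II over 4, 0.19 for complex III over 9, 0.20 for complex IV over 12 and 0.20 for ATP synthase over 18. For complex II the median turned to −0.022 against WT replicate 3 alone, with 2 of 4 genes higher, and to −0.0040 with the ribosomal covariate, while the other 4 medians stayed above 0 in both. Ndufb8, an accessory subunit of complex I, was at 77.7, 78.5 and 79.4 TPM in WT and at 100.02, 101 and 95.8 TPM in LRP5-null libraries, with a log2 difference of 0.33 (limma adjusted p = 0.0648, standard error 0.061). Cox7a2, a small subunit of complex IV, was at 120, 126 and 130.5 TPM in WT and at 162, 155 and 152 TPM in LRP5-null libraries, with a log2 difference of 0.31 (limma adjusted p = 0.0781, standard error 0.065). WT replicates of Ndufb8 and Cox7a2 lay close together. They were named for the smallest p in their lists, which favours genes of small spread. Their spread therefore does not stand for that of the other nuclear genes.

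The other nuclear genes with the smallest p in their list were also higher. They were Ndufa9 of complex I, at a log2 fold change of 0.32, Sdhb and Sdha of complex II, at 0.24 and 0.12, Uqcr10 and Uqcr11 of complex III, at 0.31 and 0.29, Ndufa4 of complex IV, at 0.30, and Atp5k and Atp5l of ATP synthase, at 0.30 and 0.28 (limma adjusted p from 0.0855 to 0.357). The values of Sdha overlapped between the labels and those of the others did not, against 29.7% of all genes tested without overlap. Genes picked for a small p tend to separate the labels, so this is not a separate result.

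**Figure D5:**
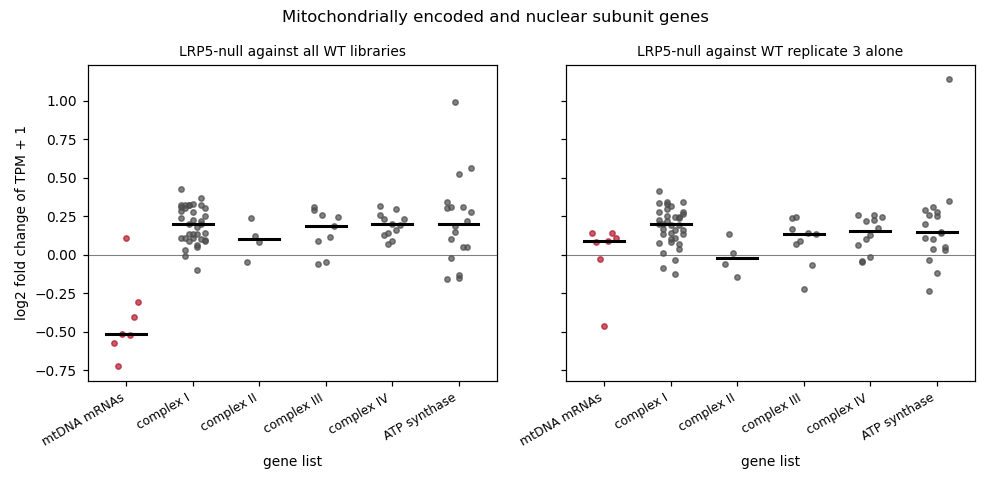
Log2 fold change of TPM + 1, LRP5-null minus WT, of the 7 tested mRNAs of mitochondrial DNA (red) and of nuclear subunit genes of each complex (grey), with the median as a bar, against all WT libraries on the left and against WT replicate 3 alone on the right. The red median is −0.51 on the left and 0.09 on the right, and 70 and 66 of the 79 grey points lie above 0.

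Genes whose products copy, transcribe or process mitochondrial DNA and RNA were mixed in direction. Of 25 tested, 14 were higher and 11 lower, against 41.2% lower over all genes tested, and the median log2 fold change was 0.02. Of the 25, 0 were called and 6 had an unadjusted p under 0.05 in limma, near the share over all genes (2294 of 9775). Polg2, the accessory subunit of the polymerase that copies mitochondrial DNA, was at 2.11, 2.38 and 3.14 TPM in WT and at 3.30, 3.84 and 3.69 TPM in LRP5-null libraries (log2 fold change 0.39, limma adjusted p = 0.139, standard error 0.12). Mtpap, the mitochondrial poly(A) polymerase, was at 7.43, 6.88 and 7.12 TPM in WT and at 6.26, 5.65 and 6.07 TPM in LRP5-null libraries (log2 fold change −0.22, limma adjusted p = 0.159, standard error 0.076). Neither passed the test.

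Of 19 tested genes for other abundant mitochondrial proteins, 15 were higher and 4 lower, against 41.2% lower over all genes tested. Their median log2 fold change was 0.07. Of the 19, 2 had an unadjusted p under 0.05 in limma, against 2294 of all 9775 genes tested. After adjustment 1 was called, against 0.532% of all genes tested. This was Phb2, a prohibitin of the inner membrane, which rose from 34.1 ± 1.21 to 51.6 ± 2.93 TPM (SD, n = 3 each; log2 fold change 0.58, limma adjusted p = 0.0357, standard error 0.073). Its call was lost in 9 of 18 alternative fits. The summed TPM of the list of 20 was between 942 and 1084 in WT and between 1032 and 1063 in LRP5-null libraries, so that the labels overlapped.

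The libraries carried neutrophil markers at high levels, with a summed TPM of 13 rows between 398598 and 443040 in WT and between 427137 and 447480 in LRP5-null libraries. Most of each sum was S100a9 and S100a8, with means over all libraries of 214290 and 127196 TPM. Of the 13, 6 were higher, 7 lower and 0 called, against 0.532% of all genes tested. Without overlap, 2 were lower (Mmp8, −0.41, and Cxcr2, −0.15) and 2 higher (Camp, 0.35, and S100a9, 0.18), against 29.7% of all genes tested without overlap. Markers of early granulocyte precursors, cells known to hold more mitochondria, were all higher in LRP5-null libraries (8 of 8, median log2 fold change 0.31). Over all genes tested 41.2% were lower. Of the 8, 0 were called, against 0.532% of all genes tested. In 5 of them every LRP5-null library lay above every WT library, against 17.4% of all genes tested. Prtn3 (0.33), Mpo (0.12) and Top2a (0.02) overlapped between the labels. The sums were 375 to 416 TPM in WT and 458 to 472 TPM in LRP5-null libraries. The sums of WT replicates 1, 2 and 3 for this list were 375, 416 and 407 TPM. Most of each was 1 gene, Cebpe, at 268, 317 and 305 TPM. Within WT, Cebpe and Prtn3 were lowest in replicate 1 and Mpo, Top2a and Ctsg were highest there. Elane, Ms4a3 and Mki67 lay between in it, so the markers gave no common order of the WT libraries. Summed TPM of other cell types was 55.9 to 62.9 in WT and 49.1 to 60.8 in LRP5-null libraries for 9 erythroid markers, 16.6 to 21.1 and 19.99 to 20.9 for 6 B and plasma cell markers, 10.8 to 11.9 and 14.2 to 15.7 for 6 T and NK cell markers, 50.0 to 61.7 and 59.5 to 67.4 for 7 monocyte and macrophage markers, 9.68 to 12.2 and 12.8 to 14.1 for 5 eosinophil and basophil markers, and 2.44 to 3.67 and 3.83 to 4.27 for 4 megakaryocyte markers. Most of the T and NK cell sum was 1 gene, Cd3d, at 10.1 ± 0.690 TPM in WT and 13.9 ± 0.560 TPM in LRP5-null libraries (SD, n = 3 each, limma adjusted p = 0.0651). In LRP5-null libraries the means of Cd3e, Cd3g, Trbc2 and Klrb1c were lower and that of Ncr1 was higher. All of that list but Cd3d averaged under 1 TPM, overlapped between the labels and were not tested. These lists of other cell types held 5, 6, 1, 5, 3 and 2 tested genes, in the order given above. Of these genes 1 was called, against 0.532% of all genes tested. It was the eosinophil granule gene Prg2, which rose from 1.02 ± 0.156 to 2.79 ± 0.410 TPM (SD, n = 3 each, limma adjusted p = 0.0341). In its list Siglecf (log2 fold change 0.03) and Mcpt8 (−0.05) overlapped between the labels and were not called. Epx, higher without overlap, and Cpa3, with overlap, averaged under 1 TPM and were not tested. No marker was at 0 in every library, and the part of these cells in the levels was not tested.

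The nuclear genes whose profile over the 6 libraries was nearest to the mean profile of the 10 members were Tmed5, Lypla1, March7, Ripk1 and Atg4c, out of 5219 nuclear genes that averaged 10 TPM or more. Their root mean square difference from that profile on the log2 scale was between 0.121 and 0.134, against a median of 0.386 over all 5219. Tmed5 was at 68.4, 48.9 and 41.8 TPM in WT and at 40.3, 41.0 and 40.3 TPM in LRP5-null libraries. Atg4c was at 15.5, 11.3 and 8.68 TPM in WT and at 8.38, 8.61 and 8.70 TPM in LRP5-null libraries. Both had WT replicate 1 highest, replicate 2 next and replicate 3 close to the LRP5-null libraries, as in the summed mitochondrially encoded mRNAs. Ripk1 instead had WT replicate 2 as its lowest library, at 0.872 times its LRP5-null mean. In the profile itself, relative to the mean of the 6 libraries on the log2 scale, WT replicate 2 was at −0.073. The LRP5-null libraries were between −0.25 and −0.14 there, while the sum in WT replicate 2 was 1.32 times the LRP5-null mean. The profile weighs each member alike, so the low mt-Nd4 of WT replicate 2, at 11.1 TPM, lowers it in that library. Nearness to the profile is therefore not nearness to the other members in WT replicate 2. All 5 genes were picked for a small difference from that profile, so their likeness to it is not a separate result.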

How the data were processed

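RNA of bone marrow neutrophils was sequenced in 6 libraries. The authors deposited a table of TPM, per length and scaled to one total, and a read summary with read counts, read shares (percent), coverage bias as a ratio, a coverage score and insert sizes in bases. The authors name mm9 and DESeq2; the tool that gave TPM and its treatment of reads with several alignments are not given in the sources used here. The labels name a Percoll gradient and an mRNA kit, the methods a CD11b and Ly6G sort and a total RNA kit with single-end reads, and the read summary describes paired reads of 94 bases. TPM keeps no depth, so errors come only from the spread between libraries.

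The 9775 genes that averaged 1 TPM or more were compared by label, 3 libraries each, on log2(TPM + 1) in limma (version 3.58.1, R 4.3.3), letting the variance depend on the mean and adjusting by Benjamini-Hochberg over all of them, without covariates. Fold changes of low genes are understated on this scale. TPM holds no counts, so count models were not run. The fit was tested on simulated data. Mitochondrial DNA was matched to nuclear DNA of NCBIM37 with blastn 2.17.0, and a stretch counted as shared where all of its 94 bases matched. GC content covered 89.7% of the genes tested.

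The members and gene lists were chosen with earlier results of these data known. The text names all 10 members, the other mRNAs and the rRNAs of mitochondrial DNA, of each nuclear list the called genes or else the 2 with the smallest p, Lrp5, Lyz2, and the 5 nuclear genes of nearest profile. Alternatives were another pseudocount (0.1), filters, scalings, robust or untrended shrinkage in limma, a block for the replicate number, leaving out each library, the ribosomal share as a covariate, WT replicate 3 alone, and GC content and length trends removed. The share within 5 members was added after seeing the data.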

Additional observations from a re-analysis of the deposited data

How the results depend on the processing

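The number of members called was 0 of 7 (0 of 10 with no filter on low values) in every fit except that without WT replicate 3, where it was 4 of 7, and it ranged from 0 to 4 with each library left out. The number of genes called over the whole table was 52 (26 higher, 26 lower), 3 with no filter on low values, 29 for genes averaging 5 TPM or more, 95 (68 higher, 27 lower) on TPM rescaled after taking out the 20 most abundant and the mitochondrially encoded genes, 6 (1 higher, 5 lower) with the ribosomal share as a covariate, 8 against WT replicate 3 alone, 380 (140 higher, 240 lower) with GC content and length trends removed, and from 2 to 1920 with each library left out. These causes were not tested. The median log2 fold change of the 7 members was −0.51, ranged from −0.76 to −0.15 with each library left out, and was 0.089 against WT replicate 3 alone. In that comparison mt-Nd1 (0.14), mt-Nd2 (0.085), mt-Nd5 (0.089), mt-Nd6 (0.14) and mt-Cytb (0.11) turned higher and mt-Nd4 (−0.46) lower. mt-Nd4 also turned lower with the ribosomal share as a covariate (−0.18), and with each library left out it ranged from −0.999 to 0.93. The median of the 79 nuclear genes was 0.19, 0.15 with median-ratio scaling, 0.16 against WT replicate 3 alone and 0.12 with GC content and length trends removed. Of these genes 0 were called, 3 with those trends removed, and from 0 to 25 with each library left out, the 25 without WT replicate 3.

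Differences in share among the 10 members, LRP5-null minus WT, turned sign for some genes with a library left out, and ranged from −0.46 to 0.14 percentage points for mt-Nd5, −1.65 to 2.35 for mt-Nd4, −3.57 to 0.53 for mt-Co1, −0.0051 to 0.017 for mt-Atp6 and −0.0029 to 0.12 for mt-Nd6.

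Libraries of both labels carry replicate numbers 1 to 3. Deviations of same-numbered libraries from their label means correlated at 0.23, −0.0075 and 0.13, so the numbers were not taken as pairs. With the replicate number as a block 4 genes were called over the table (2 higher, 2 lower), 0 members were called, and the median of the members was −0.51.

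TPM gives no counts, so counting error of the low values of mt-Co2, mt-Co3 and mt-Atp6 is unknown. The median kept its sign with any 1 library left out and lost it with WT replicates 1 and 2 both left out. With 3 libraries a label, a difference between labels in the mitochondrially encoded mRNAs of the size seen could not be told apart from the spread within WT.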
